A study of Mus musculus with 6 samples.

Results

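Il10, Il17a, Il21 and Fcer2a, the genes for interleukin 10, interleukin 17A, interleukin 21 and the low-affinity IgE receptor CD23, were 4 of the 84 genes of interest on a qRT-PCR plate run on mouse back skin. They were chosen by symbol, and the well of each was taken from the plate map (A4, G1, F12 and G11). The skin came at day+70 post-irradiation from 3 GVHD controls and 3 CpG-proB recipients, with the animal numbers of the deposit (1 to 3 for controls, 4 to 6 for recipients). All 6 animals were female Balb/c mice, 10 weeks old at irradiation with 5.8 Gy, and all received 5000000 bone marrow cells depleted of T and B cells together with 1000000 splenocytes of C57BL/6J origin. The recipients were given in addition 750000 CpG-proBs, progenitors at the pro-B stage that had been sorted from C57BL/6J bone marrow cultures activated with the TLR-9 agonist CpG and expanded over OP-9 stromal cells. Both groups thus received donor splenocytes, and the labels give both as having chronic GVHD. On which day the CpG-proBs of these recipients were injected is not given in the sources used here. Animals without GVHD and recipients of non-activated progenitors were not analysed here.

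IL-10 is the main anti-inflammatory cytokine of regulatory T and B cells and of macrophages, and restrains antigen presentation. IL-17A is the signature cytokine of Th17 cells and of dermal γδ T cells, and acts on keratinocytes and fibroblasts. IL-21 is produced mostly by T follicular helper cells and drives germinal centre B cells and plasma cell differentiation, while CD23 sits on follicular B cells and is induced by IL-4 through STAT6. In chronic GVHD, T follicular helper cells and donor B cells are known to take part in skin disease. The study also stained lymph node T cells for these cytokines. It analysed skin by flow cytometry too, on earlier days than the plate. There it reported a larger IL-10-positive share of B cells and of a T-cell subset in recipients. IL-10-positive dendritic cells also accumulated on the later of those days. Part of the CpG-proB progeny found in skin resembled follicular B cells and carried CD23. How these proteins relate to the RNA of whole skin was not tested. The plate addresses whether the transcripts of these cytokines and that of CD23 differed in the skin of animals given CpG-proBs.

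The sequences upstream of Il21 and Fcer2a are shown because these members had lower signal in CpG-proB recipients, and that of Il17a beside them as a gene without such a difference. Each is the 250 bases before the start of transcription in RefSeq (GRCm38.p6), on the strand of the gene. Il10 is on chromosome 1. Capitals mark TATAAA, the core of a TATA box, and TTC followed after 4 bases by GAA, a spacing bound by STAT6. Il17a lies at chr1:20730655-20730904 on the + strand, Il21 at chr3:37232637-37232886 on the − strand, the first start of Fcer2a at chr8:3694175-3694424 on the − strand and the second at chr8:3690862-3691111 on the − strand.
Il17a: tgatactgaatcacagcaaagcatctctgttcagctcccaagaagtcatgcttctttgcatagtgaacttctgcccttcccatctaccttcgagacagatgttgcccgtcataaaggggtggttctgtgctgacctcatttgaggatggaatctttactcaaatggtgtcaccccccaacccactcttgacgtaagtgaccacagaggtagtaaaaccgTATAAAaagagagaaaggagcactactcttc
Il21: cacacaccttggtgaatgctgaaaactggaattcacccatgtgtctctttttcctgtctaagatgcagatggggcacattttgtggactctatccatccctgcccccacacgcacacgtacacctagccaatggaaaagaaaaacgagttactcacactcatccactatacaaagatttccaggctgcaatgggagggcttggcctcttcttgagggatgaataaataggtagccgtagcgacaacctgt
Fcer2a, first start: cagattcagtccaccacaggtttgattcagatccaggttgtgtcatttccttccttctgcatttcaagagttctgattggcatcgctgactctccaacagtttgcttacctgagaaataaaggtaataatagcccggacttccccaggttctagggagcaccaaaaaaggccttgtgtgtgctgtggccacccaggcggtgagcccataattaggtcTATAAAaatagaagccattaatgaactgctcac
Fcer2a, second start: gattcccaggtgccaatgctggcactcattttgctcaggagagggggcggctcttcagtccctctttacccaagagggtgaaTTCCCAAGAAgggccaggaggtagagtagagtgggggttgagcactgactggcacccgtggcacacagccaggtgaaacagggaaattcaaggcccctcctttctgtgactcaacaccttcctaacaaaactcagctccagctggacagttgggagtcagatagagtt

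Over both strands, TATAAA was found from position −31 of Il17a and from position −33 of the first start of Fcer2a, counted back from the start of transcription, and 12.4% of the 32851 mouse promoters of this length hold it. It was not found in the window of Il21. The STAT6 spacing stood at position −168 of the second start of Fcer2a, as TTCCCAAGAA, and 5.85% of the promoters hold one. These triplets with 3 bases between them, a shorter spacing held by 7.02%, were not found upstream of any of them. GGAAA, the core that NFAT recognizes and which 55.6% of promoters hold on either strand, occurred 3 times upstream of Il21, 1 time upstream of each of the 3 starts of Fcer2a and not upstream of Il17a. The third start of Fcer2a, not shown, held none of the other motifs. These matches describe the letters only.

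The plate gave a threshold cycle (Ct) for each well, the PCR cycle at which the signal crosses a set level, so that a lower Ct means more cDNA. Each animal had 2 negative-control wells. Their lowest Ct ranged from 28.21 to 29.55 among the 6 animals and did not separate the groups, as it averaged 29.1 ± 0.741 (SD, n = 3) for GVHD controls against 29.0 ± 0.292 (SD, n = 3) for CpG-proB recipients (exact permutation test, two-sided, p = 0.9). What the negative wells contained is not given in the sources used here. Between 10 and 18 of the genes of interest came up at or past the lowest negative well of their own animal. The reference, a mean over 6 house-keeping genes, differed by 0.293 cycles between the groups (exact permutation test, p = 0.6).

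The primers of Il10 both lie in exon 3 (product of 64 bp) and those of Il21 both in exon 1 (81 bp), as for 20 of the 92 gene assays of the plate map, so that genomic DNA, if present, would give the same product as cDNA. The Il17a pair spans the junction of exons 2 and 3 (139 bp) and the Fcer2a pair lies in exons 8 and 9 (131 bp). No well without reverse transcriptase is listed on the plate map, and the part of genomic DNA in these signals was not tested.

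**Figure D1:**
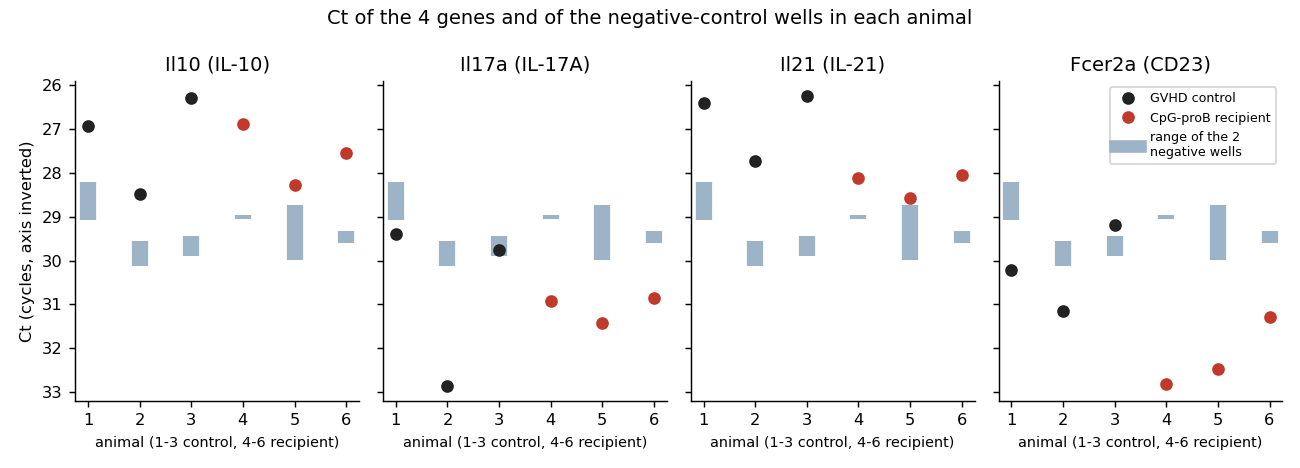
Ct (cycles, inverted axis, higher is more cDNA) of the 4 genes in each of 3 GVHD controls (black) and 3 CpG-proB recipients (red); blue-grey bars span the 2 negative-control wells of the same animal. Il10 and Il21 lay ahead of the bars in 6 of 6 animals, Il17a was past the lowest negative well in 6 of 6, and Fcer2a in 5 of 6.

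Measured against the negative wells, Il10 and Il21 had signal ahead of these wells in every animal, and Il17a and Fcer2a mostly did not. The Ct of Il10 was 26.92, 28.49 and 26.29 in controls 1 to 3 and 26.88, 28.28 and 27.55 in recipients 4 to 6. Each of these wells was ahead of the lowest negative well of its animal, by 0.46 to 3.14 cycles. The Ct of Il21 was 26.41, 27.73 and 26.23 in controls and 28.12, 28.58 and 28.05 in recipients. Il21 was ahead of the negative wells by 1.80, 1.82 and 3.20 cycles in the controls and by only 0.85, 0.16 and 1.27 cycles in the recipients, and in recipient 5 its signal was thus close to that of a negative well. Set against 28.21, the lowest negative Ct of any animal, 2 Il10 wells and 1 Il21 well were at or past it.

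The Ct of Il17a was 29.40, 32.87 and 29.75 in controls and 30.92, 31.42 and 30.85 in recipients. Every Il17a well was past the lowest negative well of its animal, by 0.32 cycles in control 3 up to 3.32 cycles in control 2. The Ct of Fcer2a was 30.21, 31.16 and 29.18 in controls and 32.83, 32.47 and 31.28 in recipients. Control 3 was the only animal in which Fcer2a came up before the negative wells, by 0.25 cycles, and in recipients 4 and 5 it came up 3.86 and 3.73 cycles after them. Of the 82 genes tested, 62 were ahead of the lowest negative well in all 6 animals, as were Il10 and Il21, and 9 were past it in all 6, as was Il17a. Values of Il17a and Fcer2a are therefore given below as measured, in a range of Ct where the negative-control wells also gave signal.

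For the comparison, the level of each gene in an animal was expressed as −ΔCt, its Ct subtracted from the mean Ct of 6 house-keeping genes, so that 1 unit is a doubling and higher is more RNA. The threshold was that of the study, a change of 1.4-fold or more with an unadjusted p not above 0.05. The study took its p from an analysis in Qlucore and here it came from limma, so the genes that pass need not be the same. With limma's p, Il21 and Fcer2a passed the threshold, both lower in CpG-proB recipients, and Il10 and Il17a did not. Of the 82 genes, 14 passed (17.1%), 10 higher (12.2%) and 4 lower (4.88%), so that Il21 and Fcer2a stood beside Col3a1 and Cxcr4 as the lower genes. After adjustment over the 82 genes, 2 stayed at or under 0.05 (2.44%), neither of them a member. The split of higher against lower genes depended on the reference, and was 12 against 0 with all 8 house-keeping genes, 6 against 16 with the 3 of smallest spread (Gusb, B2m and Tbp) and 7 against 15 with the plate median (the median Ct of all genes of interest) as reference. On −ΔCt, 17 genes did not overlap between the groups (20.7%), 13 higher (15.9%) and 4 lower (4.88%), and none of the members was among them. In whole skin, fewer cells of a type and less RNA per cell cannot be told apart.

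Il21 was lower in recipient skin by the fold and p limits of the study applied to limma's p. It did not pass after adjustment, nor when it kept its own variance. Its −ΔCt was −5.07, −4.79 and −4.03 in controls 1 to 3 and −6.46, −5.87 and −5.07 in recipients 4 to 6. The groups met at one point, as recipient 6 reached the level of control 1, while recipients 4 and 5 lay below all controls. Controls averaged −4.63 ± 0.54 (SD, n = 3) against −5.80 ± 0.70 (SD, n = 3) for recipients. The log2 difference was −1.17 (standard error 0.54, 95% interval −2.30 to −0.033), a 2.25-fold lower level, with an unadjusted p of 0.0444 and an adjusted p of 0.284 from limma. An exact permutation test of the animals gave p = 0.2, where 0.1 is the smallest value that 3 animals against 3 allow.

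Before normalization, the Il21 wells of the groups did not overlap. Raw Ct averaged 26.8 ± 0.819 (SD, n = 3) for controls against 28.2 ± 0.288 (SD, n = 3) for recipients, later by 1.46 cycles (exact permutation test, p = 0.1). Among the 82 genes, raw Ct was higher in all recipients than in all controls for 12 (14.6%), of 21 without overlap in either direction (25.6%). The Il21 difference passed the threshold with the 3 house-keeping genes of smallest spread (−1.63), with the plate median as reference (−1.54) and without a reference (−1.46, one of 3 lower genes there, 3.66%). It did not pass with all 8 house-keeping genes (−0.87) or when Il21 kept its own variance (unadjusted p of 0.0836 without limma's moderation, where 3.66% of genes passed as lower). Without control 2 (−1.25), control 3 (−0.87), recipient 4 (−0.84) or recipient 5 (−1.13) it did not pass either.

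Fcer2a had the largest drop of the 82 genes, in a range of Ct at and past the negative wells. Its −ΔCt was −8.87, −8.22 and −6.98 in controls and −11.17, −9.76 and −8.30 in recipients. Recipient 6 lay between controls 1 and 2, and the other recipients lay below every control. The mean went from −8.03 ± 0.96 (SD, n = 3) to −9.74 ± 1.44 (SD, n = 3), and the log2 difference was −1.72 (standard error 0.68, 95% interval −3.16 to −0.28). This is a 3.29-fold lower level, with an unadjusted p of 0.0223 and an adjusted p of 0.183 from limma, and an exact permutation p of 0.2. As 5 of its 6 wells were past the negative wells, a Ct set to the lowest negative Ct of the animal wherever it was later left no decrease, with a log2 difference of 0.26.

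Raw Ct of Fcer2a did not overlap between the groups, and averaged 30.2 ± 0.990 (SD, n = 3) for controls against 32.2 ± 0.811 (SD, n = 3) for recipients (exact permutation test, p = 0.1). The Fcer2a difference passed against the 3 house-keeping genes of smallest spread (−2.18), against the plate median (−2.09) and without a reference (−2.01). It did not pass with all 8 house-keeping genes (−1.42), or without control 3 (−1.20) or recipient 4 (−1.0047). Nor did it pass when Fcer2a kept its own variance (standard error 0.997, unadjusted p of 0.160 without limma's moderation). Its adjusted p from limma was at or under 0.05 against the plate median (0.00933) and without control 1 (0.0496), and above it in the other settings run. The spread of Fcer2a between animals was among the widest on the plate, with a pooled SD of 1.22 on the log2 scale, the fifth largest of the 82 genes, against a median of 0.625. Levels ranged over 4.19 log2 units, from −11.17 in recipient 4 to −6.98 in control 3.

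**Figure D2:**
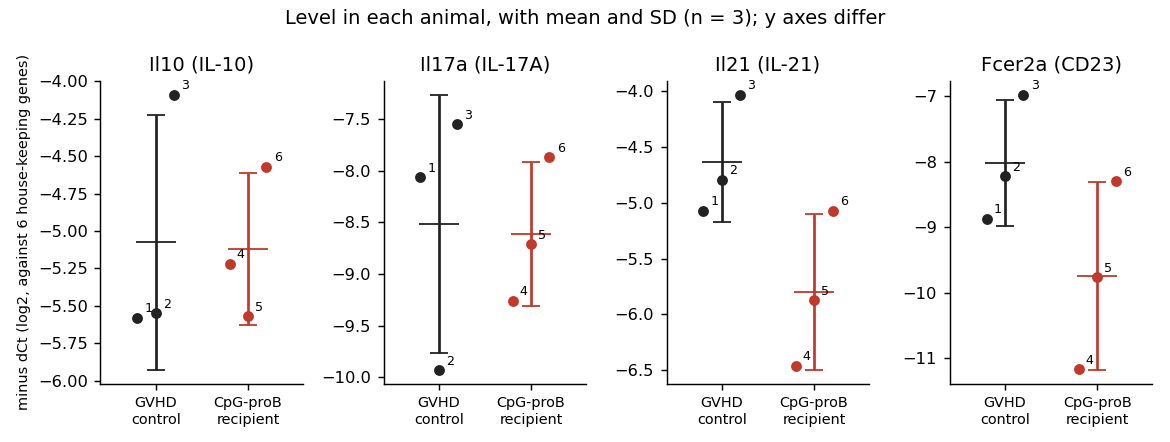
Level of each gene as −ΔCt (log2, against 6 house-keeping genes) in each numbered animal, with the mean and SD of 3 GVHD controls (black) and 3 CpG-proB recipients (red); the y axes differ between panels. Recipients 4 and 5 lay below all controls for Il21 and Fcer2a, and the groups overlapped for Il10 and Il17a.

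Il10 gave nearly the same mean in both groups. Its −ΔCt was −5.58, −5.55 and −4.09 in controls and −5.22, −5.57 and −4.57 in recipients, so that all recipients fell within the range of the controls. The means were −5.08 ± 0.85 (SD, n = 3) and −5.12 ± 0.51 (SD, n = 3). The log2 difference was −0.044 (standard error 0.55, adjusted p = 0.985 from limma), and the exact permutation p was 0.9. The 95% interval ran from −1.21 to 1.12, that is from 0.432 to 2.18 times the level of controls, and changes within it in either direction were compatible with these 6 animals. The sign depended on the setting, as Il10 was at 0.25 with all 8 house-keeping genes and at 0.45 without control 3.

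Il17a likewise showed no difference larger than the spread. Its −ΔCt was −8.06, −9.93 and −7.55 in controls and −9.26, −8.71 and −7.87 in recipients. Control 2 was the lowest and control 3 the highest of all 6 animals, and the recipients lay between them. The means were −8.52 ± 1.25 (SD, n = 3) and −8.61 ± 0.70 (SD, n = 3), with a log2 difference of −0.097 (standard error 0.63, 95% interval −1.42 to 1.22, adjusted p = 0.985 from limma, exact permutation p = 1). The sign turned to 0.20 against all 8 house-keeping genes and to 0.39 without control 3, and the difference was −0.81 without control 2.

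The reference shifts all genes alike. The median log2 difference over the 82 genes was 0.11 in the main setting, 0.41 with all 8 house-keeping genes, −0.35 with the 3 of smallest spread and −0.26 with the plate median as reference. Relative to that median, Il21 stood at −1.28, Fcer2a at −1.83, Il10 at −0.16 and Il17a at −0.21 under each of these 4 references. All 4 members were thus below the median gene under these references, which agree by construction, although Il10 and Il17a by less than their standard errors. With Ct capped at the negative wells, Il21 was at −1.45 and Il10 at −0.33 from the median, but Fcer2a at −0.022 and Il17a at 0.062. Without control 3, Il21 was at −1.13 and Fcer2a at −1.46, but Il10 at 0.18 and Il17a at 0.12. B2m, part of the reference, came up earlier in recipients by 0.76 cycles (19.2 ± 0.378 against 18.4 ± 0.674, SD, n = 3, exact permutation test, p = 0.2). Without it, Il21 was at −0.96 and Fcer2a at −1.51, neither past the threshold, a choice made after seeing the data.

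**Figure D3:**
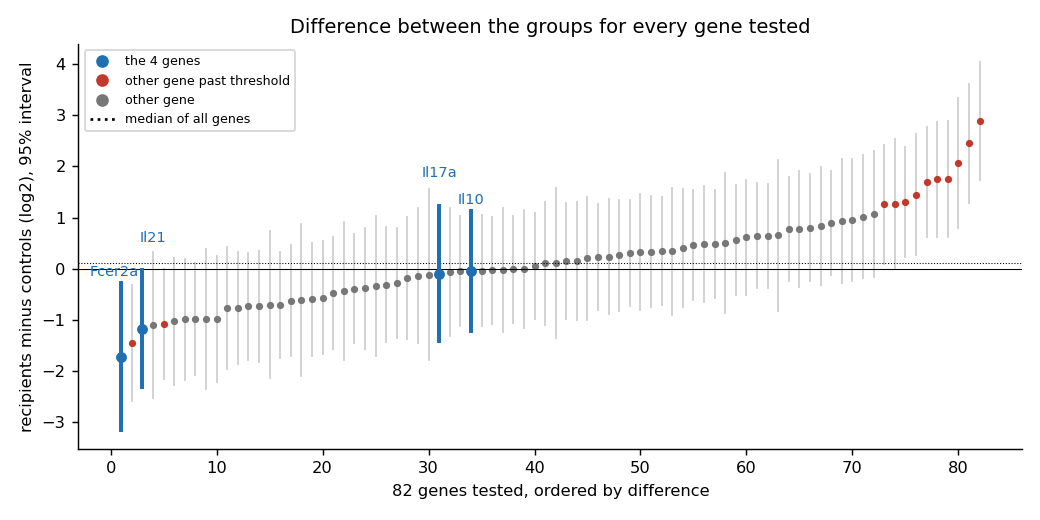
Difference between 3 CpG-proB recipients and 3 GVHD controls (log2, points, with 95% intervals from limma) for the 82 genes tested in order of size; the 4 genes are blue, other genes past the threshold red, and the dotted line is the median of all genes. Fcer2a was the lowest and Il21 the third lowest, while Il17a and Il10 were 31st and 34th.

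The members can be set against each other within an animal, which needs no house-keeping gene. Levels of different genes are not comparable through their Ct, since the primers differ, but the change of such a difference between the groups is. In the 3 controls Il21 came up before Il10, by 0.51, 0.76 and 0.06 cycles. In the 3 recipients Il21 came up after Il10, by 1.24, 0.30 and 0.50 cycles. Which gene came first carries no meaning of its own, and the result is the shift of 1.12 cycles between the groups, which did not overlap (exact permutation p = 0.1, adjusted over the 6 pairs 0.2). Nearly all of it was the difference of Il21, at −1.17 on −ΔCt against −0.044 for Il10.

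The distance from Il10 to Fcer2a also differed without overlap. It was 3.29, 2.67 and 2.89 cycles in controls and 5.95, 4.19 and 3.73 cycles in recipients, a shift of 1.67 (exact permutation p = 0.1, adjusted 0.2). With Ct capped at the negative wells, which 5 of 6 Fcer2a wells were past, the shift turned to −0.31 (exact permutation p = 0.7). The Ct of Il21 minus that of Il17a was −2.99, −5.14 and −3.52 cycles in controls and −2.8, −2.84 and −2.8 cycles in recipients. The lead of Il21 was thus shorter by 1.07 cycles in recipients (exact permutation p = 0.1, adjusted 0.2), of which 0.44 remained without control 2, whose Il17a well was the latest.

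The pairs Il10 with Il17a and Il21 with Fcer2a did not separate the groups on Ct as measured. The distance from Il10 to Il17a was 3.44 ± 0.950 cycles (SD, n = 3) for controls against 3.49 ± 0.480 (SD, n = 3) for recipients (exact permutation p = 1). That from Il21 to Fcer2a was 3.39 ± 0.426 cycles (SD, n = 3) and 3.94 ± 0.741 (SD, n = 3), a shift of 0.55 (exact permutation p = 0.4, adjusted 0.48). With Ct capped at the negative wells both turned in sign, to −0.39 for Il10 and Il17a and to −1.43 for Il21 and Fcer2a (exact permutation p = 0.1 for the latter). Il17a and Fcer2a shifted by 1.62 cycles against each other with overlap (exact permutation p = 0.2, adjusted 0.3), and by 0.083 with Ct capped. With 3 animals per group no pair could pass at 0.05. Of all 3321 pairs of the 82 genes, 26.1% did not overlap, and each of the 3 member pairs without overlap holds Il21 or Fcer2a, whose raw Ct alone did not overlap.

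**Figure D4:**
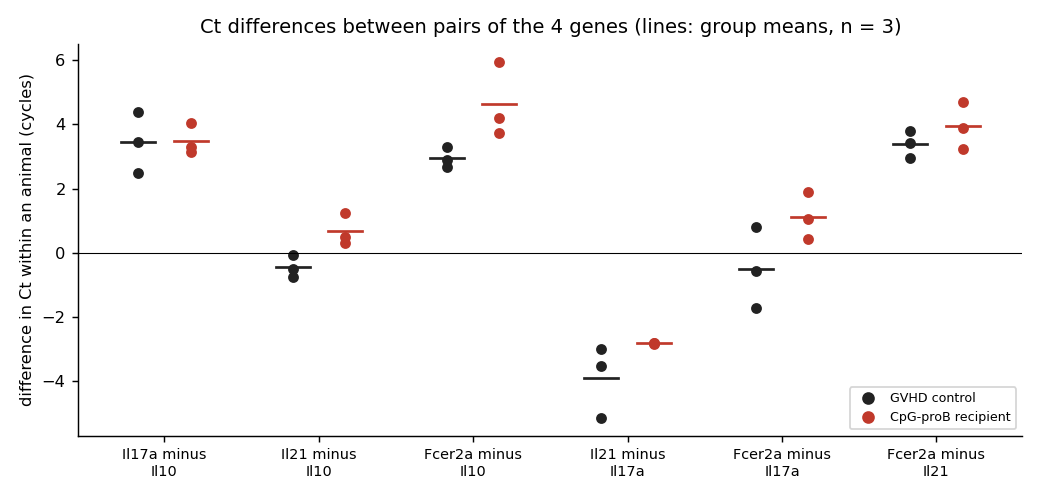
Difference in Ct between the 2 genes of each pair within an animal (cycles), for 3 GVHD controls (black) and 3 CpG-proB recipients (red), with lines at the group means. The groups did not overlap for 3 of the 6 pairs, each with Il21 or Fcer2a, against 26.1% of all pairs of genes on the plate; with Ct capped at the negative wells, Il10 with Fcer2a turned to −0.31.

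Across the 6 animals the members shared an order within their groups. Control 3 had the highest −ΔCt of the controls for all 4 genes, and recipient 6 the highest of the recipients for all 4. This was common on the plate, since control 3 was highest for 52 of the 82 genes measured in every animal (63.4%) and recipient 6 for 46 (56.1%). Recipient 4 was the lowest recipient for Il17a, Il21 and Fcer2a, as for 59.8% of all genes. The median −ΔCt of the genes of interest was −4.38, −4.72 and −4.03 in controls and −4.40, −3.97 and −3.66 in recipients. By these medians control 3 and recipient 6 were highest and recipient 4 lowest on the plate too, but control 2 was the lowest control there, while control 1 was lowest for Il10, Il21 and Fcer2a.

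The genes with the most similar profile were found by the root mean square difference of −ΔCt over the 6 animals, each gene centred on its own mean. Nearest to Il10 were Il4 (0.288 log2 units), the type 2 cytokine gene, Il1b (0.312) and Fasl (0.376), against a median of 0.758 over the 81 genes compared. Nearest to Il17a were Il17f (0.361), its closest relative in the family, Gzmb (0.384) and Ccl3 (0.443), against a median of 0.922. For Il21 they were Plg (0.271), Mmp13 (0.299) and Cd68 (0.341), with a median of 0.912, and of these Plg was past the negative wells in 5 animals and Mmp13 in all 6. For Fcer2a the first was Il21 itself (0.565), followed by Plg (0.578) and Il27 (0.644), with a median of 1.33. Il17a was itself past the negative wells in all 6 animals, and Fcer2a and Il27 in 5. All profiles share the same 6 animals and the same reference, and these are descriptions without a test.

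Il17a and Il17f, whose proteins form homodimers and a heterodimer, were both measured in every animal. Il17f came up before Il17a by 3.37, 3.52 and 3.09 cycles in controls and by 3.8, 3.31 and 2.64 cycles in recipients, a distance that overlapped between the groups, with every Il17a well past the negative wells. Il17f itself was ahead of the negative wells in all 6 animals and had a log2 difference of −0.17 (standard error 0.56, adjusted p = 0.944 from limma). Of the 5 other genes of the Th17 axis on the plate, Il17f, Il22, Il6, Il1b and Tgfb1, none passed the threshold. Il22, which acts on keratinocytes, was at −0.31, Il6, which with TGF-β induces Th17 cells, at 0.15, and Tgfb1 at −0.73 (adjusted p = 0.432 from limma). The median of the 5 was −0.17, against 0.11 over all genes.

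Around IL-10, none of Il27, Tgfb1 and Il22 passed the threshold. Il27, a subunit of a cytokine that induces IL-10 in T cells, had a −ΔCt of −7.20 ± 1.49 (SD, n = 3) for controls against −8.31 ± 0.80 (SD, n = 3) for recipients, a log2 difference of −1.10 (adjusted p = 0.404 from limma). It was past the negative wells in 5 of 6 animals, as was Fcer2a.

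Among genes of help to B cells and of the IL-4 axis that induces CD23, none passed in either direction with limma's p. Il4 was at 0.26, Stat6 at 0.65, Gata3, the Th2 master regulator, at 0.48, Il6 at 0.15 and Il13 at −0.11, and their adjusted p from limma was between 0.465 and 0.985. Il13 was past the negative wells in all 6 animals, and Stat6 was the only one of the 5 whose −ΔCt did not overlap, higher in the recipients (exact permutation p = 0.1). Without limma's moderation, Stat6 would pass the threshold as higher, with a ratio of 1.56 and an unadjusted p of 0.0189. The paper itself reports Stat6 as increased in the recipients. Il4 followed Il21 by 0.98, 1.53 and 1.14 cycles in the controls. In recipient 4 it preceded Il21 by 1.02 cycles, and in recipients 5 and 6 it followed by 0.09 and 0.29 cycles. The distances of the groups did not overlap, as for 26.1% of the 3321 pairs of genes, and this pair was not tested. Most of the shift was that of Il21, at −1.17 on −ΔCt against 0.26 for Il4, and raw Ct of Il21 alone did not overlap.

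Genes of T-cell effectors were examined beside Il21 and Il17a, since the plate has no pan-T-cell or pan-B-cell gene. Ifng, Gzmb, Fasl, Tbx21 and Eomes had log2 differences from −0.70 to 0.35, with a median of −0.044, and none passed the threshold. Their mean −ΔCt was between −6.38 and −4.43 in controls and between −5.61 and −5.02 in recipients, and Tbx21 was past the negative wells in all 6 animals. With the mean Ct of these 5 genes as the reference, Il21 was at −1.08 and no longer passed the threshold (unadjusted p of 0.117 from limma), Fcer2a was at −1.63 and passed, and Il10 and Il17a were at 0.041 and −0.013. This reference was chosen after seeing the data. The mean −ΔCt of the macrophage genes Adgre1, Cd68 and Csf1r, whose cells can also make IL-10, was between −5.15 and −4.06 in controls and between −4.90 and −4.26 in recipients. Adgre1 was at −0.60 and Cd68 at −0.56, neither past the threshold, and the median of the 3 was −0.56. Csf1r went the other way, rose by 1.30 (adjusted p = 0.183 from limma) and was the only gene named from these lists that passed the threshold. The part of cell numbers in the Il21 and Fcer2a differences was not tested.

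**Figure D5:**
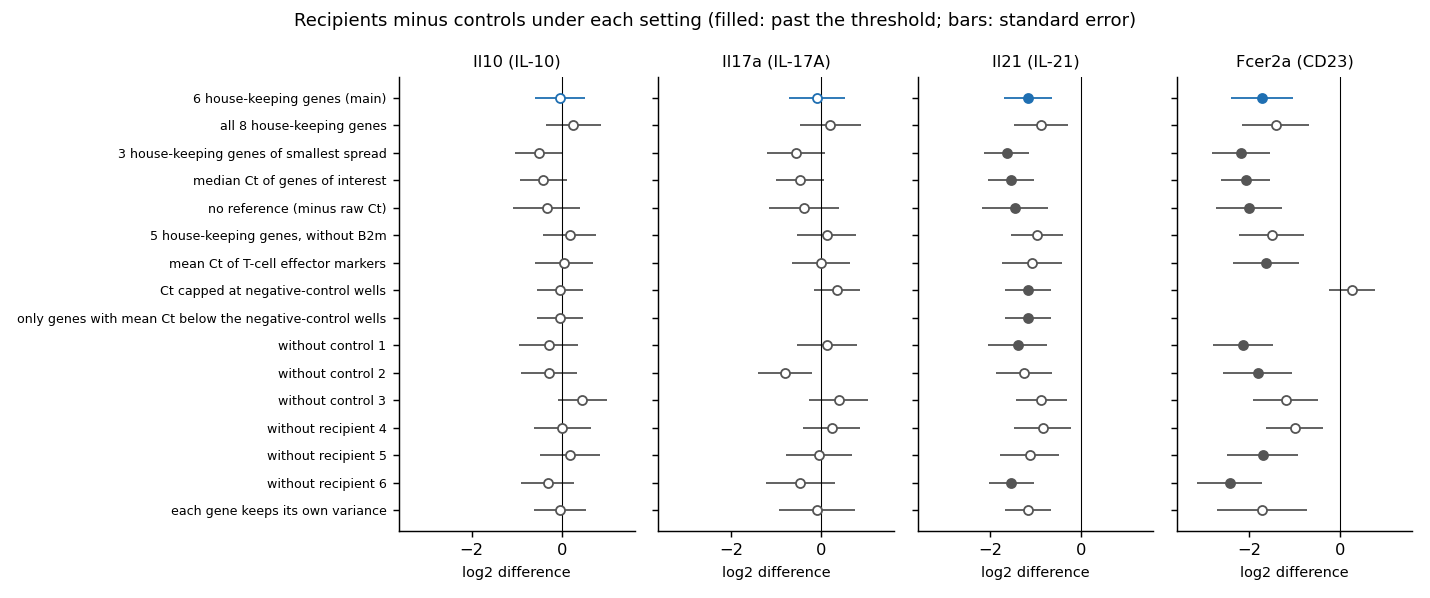
Log2 difference between CpG-proB recipients and GVHD controls (3 animals each, or with 1 left out) for each gene under each setting, with standard errors; filled points passed the threshold of the study. Il21 stayed below 0 in all settings and Fcer2a in all but the one that capped Ct at the negative wells (0.26), while Il10 and Il17a lay on both sides of 0.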

How the data were processed

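RNA from back skin was turned into cDNA with random primers and amplified with SYBR Green on a 96-well plate by the authors, who deposited the raw Ct of every well for each animal. The setting of the Ct threshold is not given in the sources used here. A second deposited table holds the authors' own ΔΔCt and fold change per gene, and none of its values was used here. Wells were named through the plate map.

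The methods state normalization to 6 house-keeping genes without naming them. Ppia, Tbp, B2m, Rplp0, Tfrc and Gusb were taken from an earlier analysis, which had chosen them by matching that table, so that the reference rests on it indirectly. Their mean Ct minus the Ct of a gene is −ΔCt, a log2 value at full amplification efficiency. The groups were compared with limma 3.58.1 in R 4.3.3 (lmFit, eBayes, two-sided) over 82 genes (Kit and Mmp1a, with under 2 Ct values in a group, were left out), with Benjamini-Hochberg adjustment over all of them, and by exact permutation tests for single values. The labels number the samples 1 to 6, and the permutation p-values rest on the spread between these animals. In limma the variance of each gene was also drawn towards that of the other genes, with 12.65 prior degrees of freedom. Depth is given by Ct, and 3 animals per group limit the precision. Alternatives changed the reference, the handling of late wells, the filter, the variance model and the animals, and the steps were tested on simulated data. Genes named are the 4 members, 5 lists of plate genes and the 3 genes most alike to each member. One gene of these lists is not reported here. The members and lists were chosen with earlier results of these data known. Sequences are from RefSeq (GRCm38.p6), in which all 4 members matched by transcript. Figures were drawn with matplotlib 3.10.9 in Python 3.11.15.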

Additional observations from a re-analysis of the deposited data

How the results depend on the processing

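Against all 8 house-keeping genes, Il10 was at 0.25, Il17a at 0.20, Il21 at −0.87 and Fcer2a at −1.42, and none of them passed. Limma then gave 0 lower genes past the threshold (also 0 at an unadjusted p under 0.05 with any fold), against 4 lower and 10 higher in the main setting. Without B2m, Il10 was at 0.17, Il17a at 0.11, Il21 at −0.96 and Fcer2a at −1.51, with 1 lower gene, and against the T-cell effector genes Il10 was at 0.041 and Il21 at −1.08, with 1 lower gene, both references chosen after seeing the data. The counts were 6 higher and 16 lower with the 3 house-keeping genes of smallest spread, 15 lower with the median Ct, and 3 higher without a reference. When each gene kept its own variance, Il21 (−1.17) and Fcer2a (−1.72) no longer passed. With Ct capped at the negative wells, Il17a was at 0.35 and Fcer2a at 0.26, and the shifts between pairs were −0.39 for Il10 and Il17a, −0.31 for Il10 and Fcer2a and −1.43 for Il21 and Fcer2a. The filter on mean Ct left no value for Il17a and Fcer2a.

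With each animal left out in turn, the log2 difference ranged from −0.32 to 0.45 for Il10, from −0.81 to 0.39 for Il17a, from −1.53 to −0.84 for Il21 and from −2.44 to −1.0047 for Fcer2a. The counts ranged from 6 (without control 1) to 15 higher and from 1 (without control 3 or recipient 4) to 6 lower genes. The shift between pairs ranged from −0.43 to 0.52 cycles for Il10 and Il17a, 0.84 to 1.32 for Il10 and Il21, 1.01 to 2.12 for Il10 and Fcer2a, 0.44 to 1.52 for Il17a and Il21, 1.01 to 2.27 for Il17a and Fcer2a, and 0.17 to 0.91 for Il21 and Fcer2a. A change of reference moved the difference of every gene by the same amount. Apart from that, and except where an alternative left out an animal or changed the Ct by its construction, the cause of these changes was not tested. No paired analysis was possible because the labels number the controls from 1 to 3 and the recipients from 4 to 6, and the groups share no number.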
